A study of Mus musculus with 9 samples.

Results

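Among the 4 C57BL/6 (B6) arrays of a mouse lateral nasal gland study, 2 pairs differed in the mRNA of several secreted proteins. Across all genes these pairs were not 2 separate clusters. Pools 1 and 2 were set against pools 3 and 4, which takes in 4 of the 9 arrays. The pairs were chosen from the measured values, not from the labels, so every difference between them is a description with no test. The labels of the 4 arrays were the same apart from the pool number.

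Total RNA was measured on 9 Affymetrix arrays with 1 colour each. The B6 mice were wild type (4 arrays), the 129/Sv mice were wild type (2 arrays), and the Cyp2g1-null mice (3 arrays) lack a nasal cytochrome P450 gene on a mixed background of both strains. All mice were male and aged 2 to 3 months, and each array held the pooled glands of 10 mice. The labels used here do not say how the null allele was made, whether pools shared a litter or cage, or when the arrays were run, so p-values measure only the spread between these pools.

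The lateral nasal gland is a serous gland in the wall of the nasal cavity that empties near the nostril. Its secretion carries lipocalins, which bind odorants and pheromones, together with protease inhibitors, enzymes, antibacterial proteins and IgA. Acinar cells make most of the protein, and ion channels and cotransporters drive the fluid that carries it out.

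The deposited values are signals, the summarised brightness of the probes of a probe set, which is a group of short probes for a transcript. Array medians lay between 518.55 and 550.05, and the trimmed mean signal between 1500.56 and 1500.59. As checks of RNA integrity, actin 3'/5' ratios ran from 2.59 to 2.90 and Gapdh ratios from 0.966 to 1.19. Obp2a and Obp1a, odorant-binding lipocalins that mark this gland, had signals of at least 112206 on all 9 arrays. The targeted gene Cyp2g1 had signals of 55.7, 140.6 and 201.1 on the null arrays and from 207.5 to 5916.8 on the wild-type arrays. B6 pool 1 stood apart in Omp, the olfactory marker protein, at 3323.4 against 702.6, 1158.5 and 1514 in pools 2, 3 and 4. Signals of different probe sets are not levels that can be ranked against each other, so each probe set was compared only between arrays.

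A probe set was said to separate the pairs when both arrays of a pair exceeded both arrays of the other and the pair means of log2(signal + 16) differed by at least 1, which is 2-fold. Of 11665 probe sets that exceeded the array median on at least 2 B6 arrays, 57 were higher in pools 3 and 4 (0.489%) and 24 were higher in pools 1 and 2 (0.206%), 81 in all (0.694%). These shares describe the rule and support nothing. The typical probe set did not move, with a median difference of 0.00281 and a middle range from -0.15 to 0.17 on the log2 scale. Without the 2-fold limit, 2152 probe sets lay higher in pools 3 and 4 with no overlap (18.4%) and 2046 lay higher in pools 1 and 2 (17.5%). The separating probe sets were mostly dim: 34 of the 57 and 13 of the 24 had a mean signal under 1000 in their higher pair. Only 9 of the 57 and 5 of the 24 reached 2000 there. In the higher group, 3 probe sets differed by more than 3 on the log2 scale and 4 by 2 to 3, while 23 of the 24 in the other group differed by less than 1.5.

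**Figure D1:**
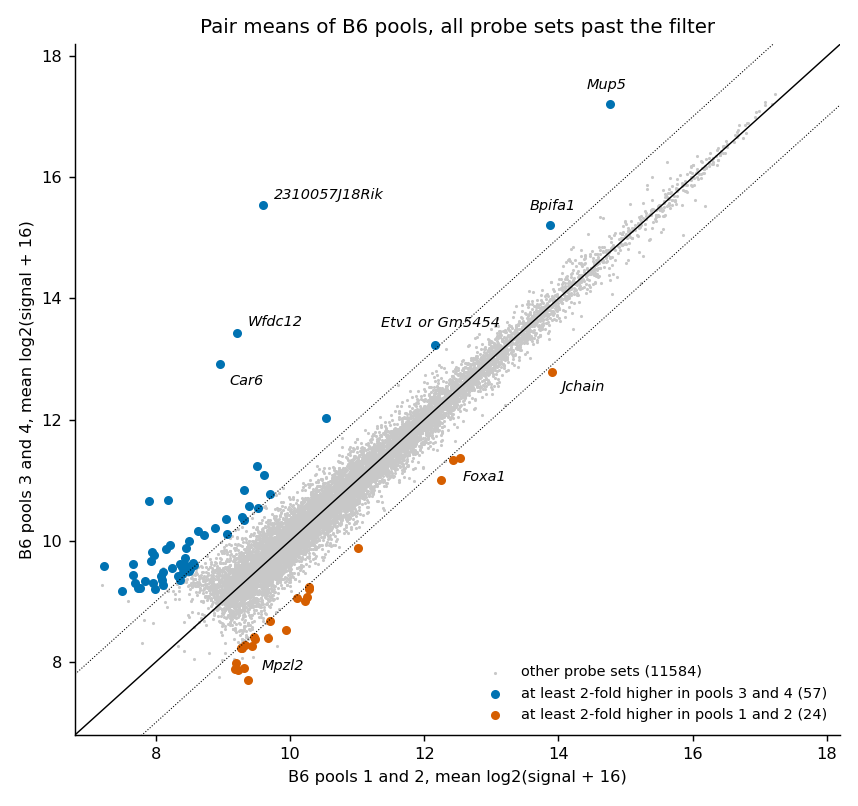
Each point is 1 of the 11665 probe sets, with the mean log2(signal + 16) of B6 pools 1 and 2 on the horizontal axis and of pools 3 and 4 on the vertical axis; the solid line marks equal means and the dotted lines a 2-fold difference. Of the 57 blue probe sets, 2310057J18Rik, Wfdc12, Car6 and Mup5 lie farthest from the line at high signal, and most of the others sit among dim probe sets at the lower left, as do most of the 24 orange ones.

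Within the lists of secreted proteins, the largest differences were those of 2310057J18Rik, Wfdc12, Car6 and Mup5, all higher in pools 3 and 4. The lists do not hold the secreted enamel protein Amelx, which is described further on and differed by 2.49 and 2.75 on dim probe sets. Across the 6 lists of secreted proteins, 70 probe sets of 57 genes passed the filter, and 6 separated the pairs, all higher in pools 3 and 4. Over the same 70 probe sets, 23 lay higher in pools 3 and 4 without overlap and 16 higher in pools 1 and 2, against 18.4% and 17.5% of all 11665 probe sets, and the median difference was 0.07. A few secretory transcripts were far apart, and most were not.

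2310057J18Rik, a gene on chromosome 10, had signals of 607.3 and 958.4 in B6 pools 1 and 2 and of 49675.4 and 45604.4 in pools 3 and 4. It stood at 50511.3 and 89549.4 in 129/Sv and at 79655.1, 76979.3 and 89707.5 in the null pools. Pools 1 and 2 were thus low against all 7 other arrays. The pairs differed by 5.93 on the log2 scale, 61.1-fold, the largest difference among the 11665 probe sets. The probe set is of a type that can match several transcripts.

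Wfdc12, a secreted protein with a whey acidic protein (WAP) domain, a fold found in protease inhibitors and antibacterial proteins, had signals of 530.2 and 631.2 in pools 1 and 2 and of 8125.5 and 15125.5 in pools 3 and 4. The difference was 4.22 on the log2 scale, 18.7-fold. The 129/Sv pools lay at 606.4, between B6 pools 1 and 2, and at 2182.6, above both and below pools 3 and 4. The null pools lay at 8417.4, 6154.1 and 11743.7, all above B6 pools 1 and 2, with the second of them below pools 3 and 4.

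Car6, the secreted carbonic anhydrase of saliva, had signals of 387.5 and 593.7 in pools 1 and 2 and of 8017.5 and 7400.6 in pools 3 and 4. That is a difference of 3.96 on the log2 scale, 15.6-fold. The signals were 10385.4 and 66481.3 in 129/Sv and 64428.1, 29312.4 and 70057.5 in the null pools, so all 4 B6 pools lay below the other 5 arrays.

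Mup5, a major urinary protein, a pheromone-binding lipocalin also made in nasal and other glands, had signals of 26292.2 and 29517.9 in pools 1 and 2 and of 159511 and 142899 in pools 3 and 4. The difference was 2.44 on the log2 scale, 5.42-fold. In 129/Sv it stood at 136962 and 113839 and in the null pools at 115372, 141173 and 145206. Only B6 pools 1 and 2 were low, and the other 7 arrays lay within 113839 to 159511.

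Klk1, tissue kallikrein, a secreted serine protease of glands, differed less. One bright probe set read 40392.6 and 40901.4 in pools 1 and 2 and 56089.8 and 59080.5 in pools 3 and 4, a difference of 0.50, so it did not pass the 2-fold limit. Another bright one differed by 0.56 and a dim one by 0.31. On the first, the signals were 79274.1 and 76504.9 in 129/Sv and 63153.1, 70220.5 and 87525.2 in the null pools, above all 4 B6 pools. A probe set shared by the kallikreins Klk1b9 and Klk1b22, which it cannot tell apart, did separate the pairs, with 570.9 and 883.3 against 2063.4 and 2752.8 (difference 1.72). Klk1b11 did not, with 1061.5 and 1004.9 against 956.3 and 1191.3.

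**Figure D2:**
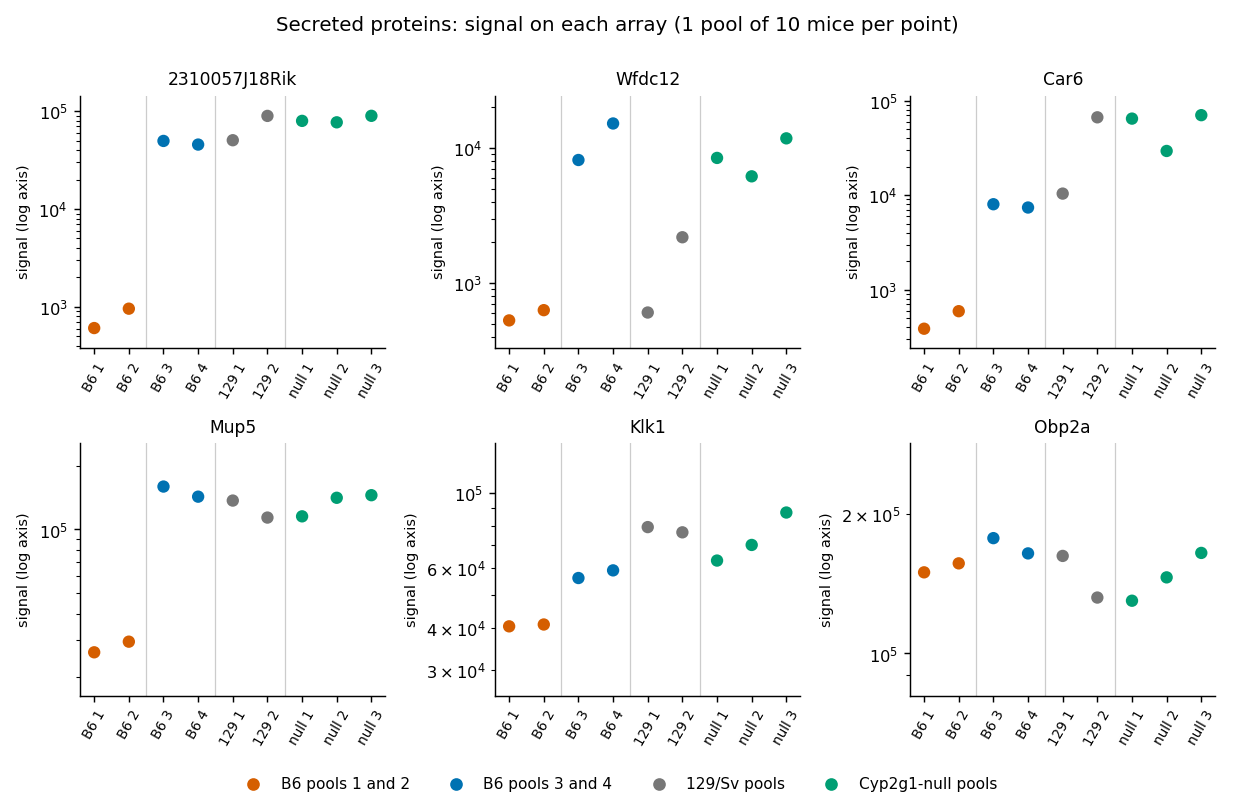
Signal on a log axis for 6 secreted proteins on the 9 arrays, 1 point per pool, coloured by group and B6 pair. Pools 1 and 2 are low in the first 5 panels, from 607.3 and 958.4 against 49675.4 and 45604.4 for 2310057J18Rik to 40392.6 and 40901.4 against 56089.8 and 59080.5 for Klk1, while Obp2a spans only 129905 to 177173 over all arrays.

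Bpifa1, an antibacterial airway protein, met the rule only narrowly. Its signals were 29108.2 and 7654.6 in pools 1 and 2 and 29161.3 and 49253.4 in pools 3 and 4, so pool 1 all but touched pool 3. The difference of 1.34 was 0.38 without pool 2 and 2.31 without pool 1. Wfdc1, another WAP protein, was the last of the 6, with 471.5 and 274.6 against 701.4 and 860.3.

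The other abundant secretory transcripts were close between the pairs. Of 25 secreted probe sets with a mean B6 signal of at least 20000, 3 separated the pairs, those of Mup5, 2310057J18Rik and Bpifa1. Obp2a differed by 0.16 and Obp1a by 0.12, the WAP protein Wfdc18 by 0.17, the nuclease Dnase1 by 0.17 and Bpifb5 by -0.05. The secretoglobins, small proteins of the salivary and lacrimal type, gave 0.30 for Scgb1b27 and 0.62 for Scgb2b27. Some secreted proteins were lower in pools 3 and 4 by less than 2-fold: Sval2 read 22491.9 and 19020.2 against 12627.8 and 14318.2 (-0.62), and Azgp1 read 5265 and 4563.6 against 3377.9 and 3093.3 (-0.60). Smr3a differed by -0.55, the bright probe set of Pip, prolactin-induced protein, by -0.38, and the 4 probe sets of the chaperone Clu by -0.18 to -0.40.

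The promoters of the 3 genes farthest apart are shown because these genes were high and low in the same B6 pools. Each sequence is the 250 bases before the annotated start in RefSeq (GRCm38.p6), on the strand of the gene, here the minus strand for all 3. Both strands were searched for 6 motifs, namely TATAAA, the steroid receptor half-site AGAACA, the forkhead core TGTTTA, the ETS core CCGGAA, the E-box CACGTG and the TATA-like TAAAAG. Matches are in capitals. TAAAAG was chosen after the sequences were seen.
2310057J18Rik, chr10:28986307-28986556: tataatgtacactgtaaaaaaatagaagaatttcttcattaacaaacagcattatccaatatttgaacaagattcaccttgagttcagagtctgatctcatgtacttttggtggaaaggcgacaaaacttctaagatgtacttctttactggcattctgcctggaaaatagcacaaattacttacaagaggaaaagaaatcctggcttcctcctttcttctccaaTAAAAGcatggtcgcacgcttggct
Wfdc12, chr2:164190559-164190808: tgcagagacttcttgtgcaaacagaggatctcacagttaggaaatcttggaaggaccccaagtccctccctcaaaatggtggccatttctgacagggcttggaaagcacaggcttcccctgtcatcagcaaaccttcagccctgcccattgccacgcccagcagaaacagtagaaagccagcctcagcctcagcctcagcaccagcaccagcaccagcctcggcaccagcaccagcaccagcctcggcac
Car6, chr4:150201136-150201385: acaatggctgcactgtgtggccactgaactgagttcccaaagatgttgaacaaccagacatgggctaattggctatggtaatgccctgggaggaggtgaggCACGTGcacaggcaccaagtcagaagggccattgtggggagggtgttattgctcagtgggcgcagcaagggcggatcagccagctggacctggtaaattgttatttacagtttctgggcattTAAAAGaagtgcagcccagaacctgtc

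TAAAAG lay 25 to 20 bases before the start of 2310057J18Rik and 27 to 22 bases before that of Car6. On the forward strand, 1.73% of 32851 RefSeq promoters of the same length hold it between 50 and 11 bases before the start, and 13.6% hold it anywhere on either strand. CACGTG lay 149 to 144 bases before the start of Car6, and 6.02% of promoters hold it. None of the 6 was in the Wfdc12 window, nor in the same window of Klk1. Of all these promoters, 12.4% hold the TATA box, 16.1% the steroid receptor half-site, 12.03% the forkhead core and 12.03% the ETS core. The promoter of Mup5 was looked up by name only. These matches describe letters and do not show that a factor binds.

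Many, but not all, of the fluid secretion genes listed were higher in pools 3 and 4, by less than 2-fold. The list of ion and water transport held 26 probe sets of 17 genes, and several probe sets of 1 gene, such as Slc12a2 or Atp1b1, are not independent. Of the 26, 15 lay higher in pools 3 and 4 without overlap and 2 lower, against 18.4% and 17.5% of all probe sets. None passed the 2-fold limit. The list's median difference was 0.47, against 0.00281 over all probe sets.

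Slc12a2, the cotransporter that loads chloride into acinar cells, read 18343.2 and 18965.3 in pools 1 and 2 and 31212.5 and 26618.9 in pools 3 and 4. The difference was 0.63, and its other probe sets gave 0.57 and 0.59. Kcnn4, a calcium-activated potassium channel, read 12427.4 and 11753.9 against 16235.3 and 19727.3 (0.57). Ano1, the calcium-activated chloride channel of acinar cells, read 1352.2 and 1298.6 against 2244 and 2136.7 (0.72).

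Subunits of the sodium pump were also higher. Fxyd2, its regulatory subunit, read 1700 and 1782.4 against 2980.2 and 3678.8 on the probe set that differed most (0.92), and all 4 probe sets of the beta subunit Atp1b1 differed by 0.38 to 0.54. Scnn1a, a sodium channel subunit of ducts, and the chloride channel Clcn2 were also higher, by 0.42 and 0.59. The water channel Aqp5, which marks acinar cells, did not follow, with 25431.4 and 26321.7 against 23883.3 and 25875. Slc5a8 and Kcnma1 were the members that lay lower, by 0.27 and 0.30.

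Transcripts of IgA secretion were lower in pools 3 and 4. Jchain, the chain that joins IgA into dimers, read 15899.3 and 14647.9 in pools 1 and 2 and 8410 and 5861.3 in pools 3 and 4, a difference of -1.12. Igha, the IgA heavy chain, read 38083 and 38396.7 against 22127.3 and 17157 on the probe set that differed most (-0.97), and its other probe sets differed by -0.66 and -0.80. Pigr, the epithelial receptor that carries IgA into the secretion, read 70993.3 and 63906.7 against 52551.9 and 48224.8 (-0.42), with -0.42 on its other probe set as well. The pairs did not overlap for any of these.

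Of 11 probe sets in the B and plasma cell list, 5 were lower in pools 3 and 4 without overlap and 2 higher (against 17.5% and 18.4% of all probe sets), and the median difference was -0.48. The 2 higher are near the share of all probe sets, but 1 of them, a dim probe set of Sdc1, passed the 2-fold limit. It read 123.8 and 505.7 in pools 1 and 2 against 772.3 and 575.6 in pools 3 and 4 (1.34), opposite to Jchain and Igha. The summed signal of all 30 probe sets of the list ran from 194547 to 200121 in pools 1 and 2 and from 105148 to 131033 in pools 3 and 4. It ran from 163977 to 224025 in the null pools and from 157939 to 245033 in 129/Sv. Such a sum is set mainly by the brightest probe sets and does not show a fall across the whole list. In pooled tissue, fewer plasma cells and less RNA per cell cannot be told apart. Whether the number of plasma cells had a part in the other differences was not tested.

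**Figure D3:**
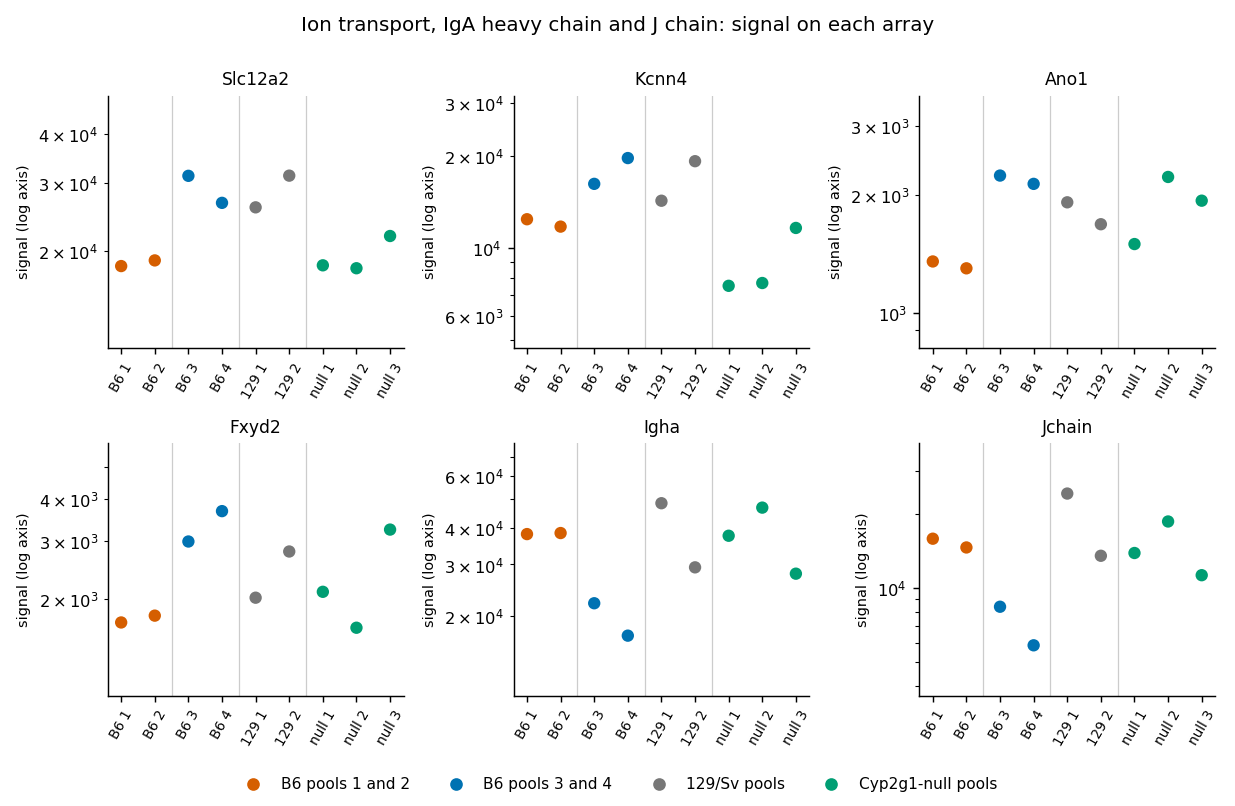
Signal on a log axis for 4 ion transport genes and for Igha and Jchain on the 9 arrays, 1 point per pool. Slc12a2, Kcnn4, Ano1 and Fxyd2 are higher in B6 pools 3 and 4 than in pools 1 and 2, and Igha and Jchain are lower. For Kcnn4 the null pools (7515.3 to 11636.3) lie below all 4 B6 pools.

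Other genes higher in pools 3 and 4 were of mixed function. Etv1, an ETS transcription factor, shares its probe set with Gm5454, and this read 4637.8 on average in pools 1 and 2 and 9646 in pools 3 and 4 (1.07), while a second shared probe set differed by 0.47. Amelx, the enamel protein amelogenin, read 373.6 and 200.7 against 1403.4 and 1849.5 on a probe set and differed by 2.75 on another, and on both the other 5 arrays lay below pools 3 and 4. Sult1c1, a sulfotransferase, read 348.5 and 342 against 788 and 1297.5, and in the list of conjugation and aldehyde enzymes 14 of 36 probe sets lay higher in pools 3 and 4 without overlap and 2 lower (38.9% and 5.56%, against 18.4% and 17.5% of all). As a whole that list did not separate the pairs: its mean log2 value was 11.35 and 11.09 in pools 1 and 2 and 11.34 and 11.5 in pools 3 and 4. Its median difference of 0.14 ran from -0.03 to 0.31 with 1 B6 array left out. Members of that list with smaller differences were Gclc (3244.5 and 3249.6 against 4459.3 and 5571.4), which makes glutathione, and Aldh3b1 (596.1 and 558.5 against 937.5 and 985.8).

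Among the 24 probe sets higher in pools 1 and 2, that of Foxa1, a forkhead factor of secretory epithelia, read 5533.6 and 5438.3 against 3378.5 and 1955.6, and the null pools lay at 6482.1, 6258.6 and 5431.8. Psmc4, a proteasome subunit, read 4360.3 and 5350.2 against 2103.8 and 1955.9 on a probe set, while another differed by 0.06. Mki67, a marker of dividing cells, was high in pool 1 alone, at 1736.3 against 539, 402.1 and 310.2. The same pool was high in Stmn1, at 4503.9 against 1379.3, 1463.5 and 1752.4. The cell cycle list had a median difference of -0.24, with 6 of 23 probe sets lower in pools 3 and 4 without overlap (26.1%, against 17.5% of all) and 0 higher (against 18.4%), and without pool 1 that median was 0.02.

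Some genes gave opposite answers on different probe sets. One probe set of Wasl, a regulator of actin assembly, read 6217.5 and 5562.1 against 2497.4 and 2732.1, and another read 668 and 764.3 against 1112.1 and 1208.3. Telo2 had 129.4 and 139.4 against 748 and 753.2 on a probe set and 637 and 534.9 against 194.1 and 241.4 on another, and 1191.2 and 1085.1 against 1219.6 and 1208 on the brightest. No direction is given for either gene. At the 2-fold limit, Irx2 (1.00) and Rec8 (-1.03) lay just inside, and Kptn (0.997) and Sesn2 (0.995) just outside.

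Housekeeping groups lay near the shares of all probe sets (18.4% and 17.5%). Of 80 ribosomal protein probe sets, 13 were higher and 14 lower in pools 3 and 4 without overlap, and of 126 for the respiratory chain, 23 and 23, with medians of -0.02 and -0.00209. Olfactory neuron markers overlapped in all 6 of their probe sets past the filter. The marker sums that follow take in every probe set of a list on the array, past the filter or not. Over 31 probe sets of olfactory neuron markers the sum ran from 6725.6 to 19908.2 in pools 1 and 2. It ran from 10754.6 to 13138.4 in pools 3 and 4. The summed markers of muscle, cartilage and bone, nerve and myeloid cells overlapped as well. Mast cell markers summed to 6477 to 7327.6 in pools 1 and 2 and to 5650.4 to 6276.3 in pools 3 and 4. Markers of sustentacular cells and Bowman's glands, a list that holds Obp2a, summed to 293514 to 306396 and to 314844 to 317219. Adipocyte markers summed to 4461.5 to 4684.5 and to 4852.3 to 5059.1 over 20 probe sets, most of them below the filter. The 3 adipocyte probe sets past the filter summed to 2419.8 and 2114.8 against 2454.6 and 2005, which overlap. Their median difference was -0.16, so no direction is given for adipocyte markers. The part of these cells in the differences was not tested.

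**Figure D4:**
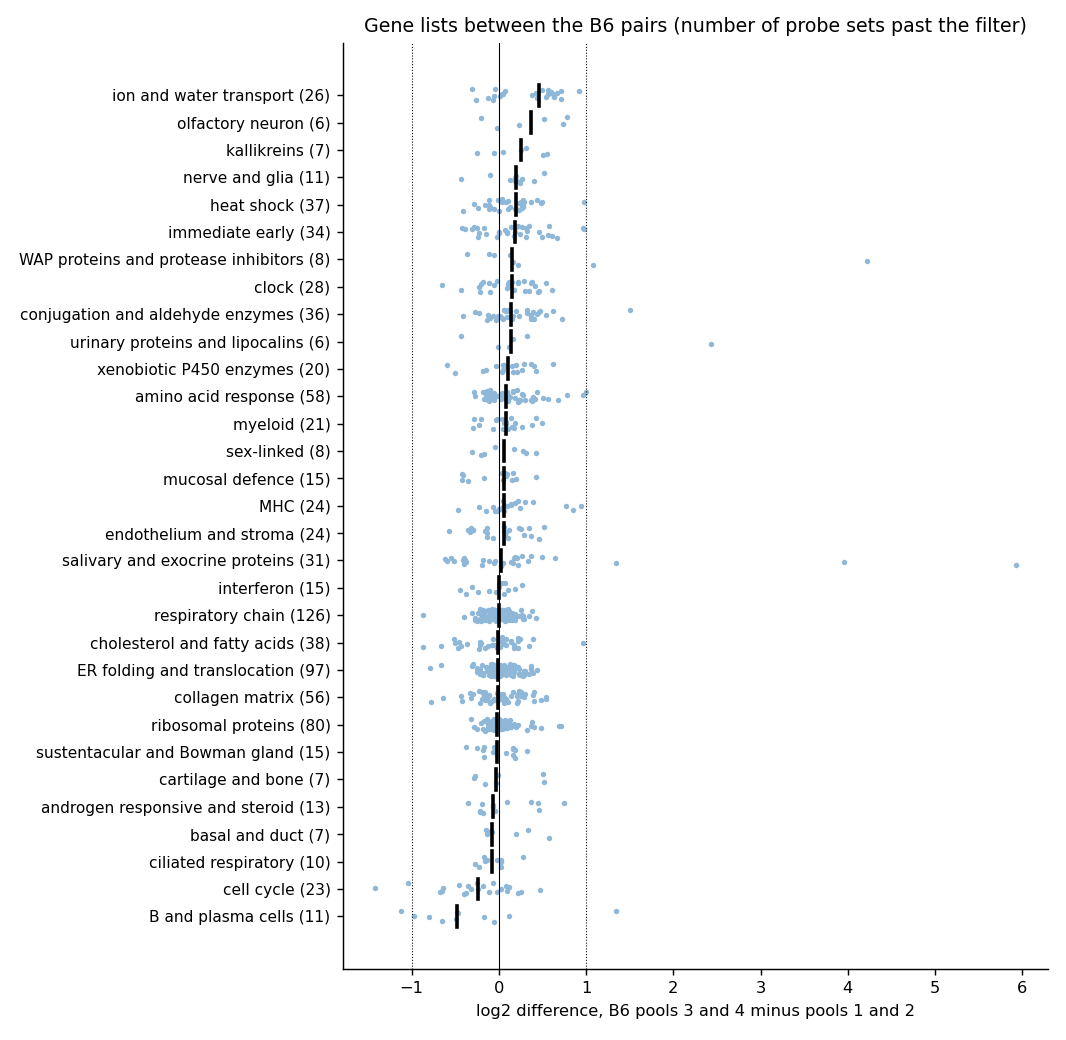
Each dot is the log2 difference of 1 probe set, pools 3 and 4 minus pools 1 and 2, for every list with at least 5 probe sets past the filter; black bars are list medians and dotted lines mark 2-fold. The list medians run from 0.47 for ion and water transport to -0.48 for B and plasma cells, and the far dots on the right are 2310057J18Rik, Wfdc12, Car6 and Mup5.

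Across all genes the pairs were not 2 separate clusters. Over 12575 probe sets, B6 pools 1 and 2 were at least 2-fold apart at 449 and pools 3 and 4 at 323. Array pairs from different B6 pairs were apart at 371 to 513, so pool 2 differed at fewer probe sets from pool 4 (371) and pool 3 (387) than from pool 1. Null arrays were apart at 243 to 306 and the 129/Sv arrays at 295, while B6 and null arrays were apart at 466 to 585 and B6 and 129/Sv arrays at 684 to 783. At 229 probe sets chosen because pools 3 and 4 differed from 129/Sv, pool 1 lay on the B6 side at 200 (87.3%) and pool 2 at 207 (90.4%). At 210 chosen on pools 1 and 2, pool 3 lay on the B6 side at 188 (89.5%) and pool 4 at 177 (84.3%).

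**Figure D5:**
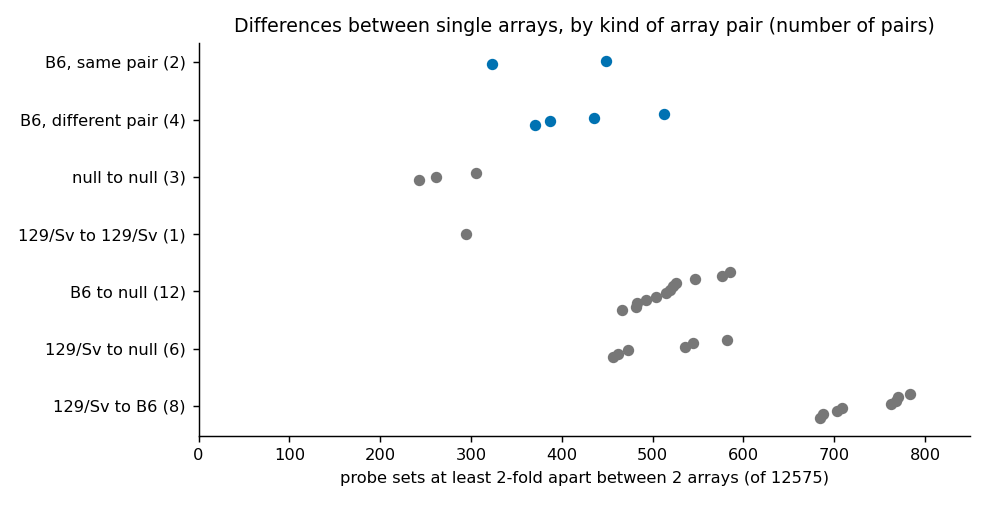
Number of probe sets, of 12575, at least 2-fold apart between 2 arrays, 1 point per pair of arrays, grouped by kind. Of the points for the same B6 pair, 449 falls among those for different B6 pairs (371 to 513) and 323 below them, and all of these lie below B6 against 129/Sv (684 to 783).

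The other arrays fell on neither side as a whole. On the 57 probe sets higher in pools 3 and 4, the 129/Sv arrays lay nearer to pools 3 and 4 at 34 and 41 and the null arrays at 34, 34 and 33. On the 24 higher in pools 1 and 2, they lay nearer to pools 3 and 4 at 10 and 14 and at 9, 8 and 10. Genes differed in this: 2310057J18Rik and Mup5 were high on all 5 other arrays, Wfdc12 was high on the null arrays only, and Mpzl2, an adhesion protein, was on the probe set that separated the B6 pairs far above every B6 pool (211.2 to 752.4) on the other 5 (1688.3 to 2787.2).

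Some of these transcripts also varied among pools that had no part in choosing them. Of the 81 separating probe sets, 20 had a range of at least 2-fold among the 3 null arrays (24.7%, against 4.19% of all 12575 probe sets), and 21 between the 2 129/Sv arrays (25.9%, against 2.35%). The background was not matched: the 81 had to exceed the array median on at least 2 B6 arrays, the 12575 on at least 2 arrays of any group. Some of the 81, such as a dim Telo2 probe set, passed only through their higher B6 pair. Part of the excess can therefore come from how the 81 were chosen. Dim probe sets also vary more. With a mean signal of at least 2000 the counts were 4 of 12 in each group, against 0.404% and 0.424% of all such probe sets. Between the 129/Sv arrays, Car6 was 6.39-fold apart (log2 2.68, rank 7 of 12575 from the highest), Bpifa1 5.98-fold (2.58, rank 8) and Wfdc12 3.53-fold (1.82, rank 33), each higher on array 2. 2310057J18Rik was 1.77-fold higher on array 2 (0.83, rank 247), whereas Mup5 and Klk1 were 0.27 and 0.05 lower there on the log2 scale.

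The profiles over all 9 arrays were compared by Pearson correlation with 2975 probe sets whose range was at least 2-fold. Nearest to Mup5 were a dim probe set of Coa3 (r = 0.982), 2310057J18Rik (0.969) and a Wasl probe set (0.945). The bright Coa3 probe set went the other way between the B6 pairs, with 8742.2 and 8559.3 against 6700 and 7643.5, as another Wasl probe set did. Nearest to Car6 were 2310057J18Rik (0.938), the urea transporter Slc14a1 (0.921) and the protease inhibitor Serpina3n (0.907). Nearest to Wfdc12 was Nrtn (0.898), and to Klk1 H2bc18 (0.938). These values rest on 9 arrays of 3 strains and were the highest of many, so they are a description.

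Null against 129/Sv is a comparison that no B6 array enters. Of 12575 probe sets, 356 passed limma's test at an adjusted p under 0.05 (2.83%), 222 higher and 134 lower in the null pools (1.77% and 1.07%), and 3 of the 81 separating probe sets passed. Wfdc12 rose from 1395 ± 1115 (SD, n = 2) in 129/Sv to 8772 ± 2812 (SD, n = 3) in the null pools, with a log2 fold change of 2.86 (SE 0.406, limma adjusted p = 0.00253). It stayed past the threshold in all 5 fits without 1 array, and missed it with the spread of all 9 arrays (adjusted p = 0.292) and without the variance trend (0.108). The shared Etv1 probe set fell by 0.97 on the log2 scale (SE 0.23, limma adjusted p = 0.0496), and missed it in several alternatives, among them without 129/Sv array 2 (0.38) and without null array 1 (0.155) or 2 (0.127). Its second probe set fell by 0.55 (limma adjusted p = 0.0415). The last of the 3 has no gene symbol.

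Car6, 2310057J18Rik, Mup5 and Klk1 did not pass against 129/Sv. Their log2 fold changes were 0.95 (SE 0.583), 0.28 (SE 0.184), 0.09 (SE 0.121) and -0.09 (SE 0.125), with limma adjusted p-values of 0.515, 0.543, 0.796 and 0.799. The value for Car6 rested on single 129/Sv arrays: it was -0.38 without array 1 (limma adjusted p = 0.694) and 2.29 without array 2 (0.0122).

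In the ion and water transport list 4 of 26 probe sets were lower in the null pools and 0 higher, against 1.07% and 1.77% of all probe sets, with a median of -0.39. These were 2 each of Slc12a2 and Kcnn4. Slc12a2 fell from 28585 ± 3763 (SD, n = 2) to 19478 ± 2102 (SD, n = 3), by 0.55 on the log2 scale (limma adjusted p = 0.0271). Kcnn4 fell by 0.92 (adjusted p = 0.021). Both calls were lost without 129/Sv array 2 (adjusted p = 0.197 and 0.196) and without null array 1 (0.114 and 0.0966) or 2 (0.108 and 0.0722). They were also lost with no filter (0.0711 and 0.0522), with the spread of all 9 arrays (0.214 and 0.0528) and without the variance trend (0.219 and 0.203). No probe set of the B and plasma cell list passed in limma's fit, and Jchain had an adjusted p of 0.56.

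The study's comparison of null with B6 gave different numbers of calls with different B6 pools. With all 4 pools, 274 of 12575 probe sets passed limma's test (2.18%), with 1.11% higher and 1.07% lower in the null pools. Without pools 1 and 2 the number was 542 (4.31%, of which 2.39% higher and 1.92% lower). Without pools 3 and 4 it was 157 (1.25%, of which 0.755% higher and 0.493% lower). Of the 274 calls, 225 were kept without pools 1 and 2 and 135 without pools 3 and 4. Leaving out pool 1 alone gave 598 calls, more than leaving out pools 1 and 2, and no other 2 B6 pools were left out together. Of the 81 separating probe sets, 2 passed with all pools, those of Car6 and Mpzl2. Without pools 1 and 2 it was 13, and without pools 3 and 4 it was 9, shares that hold the arrays that chose these probe sets.

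Car6 was higher in null than in B6 pools by 4.70 on the log2 scale (SE 0.936, limma adjusted p = 0.0158), a call lost without null array 1 (0.0766) or 3 (0.0881) and without the variance trend (0.106). The difference was 2.72 against pools 3 and 4 alone and 6.68 against pools 1 and 2 alone. Mpzl2 was higher by 2.28 (SE 0.322, limma adjusted p = 0.00156), with 2.86 and 1.69. 2310057J18Rik had a difference of 3.75 (SE 1.24, limma adjusted p = 0.157), with 0.78 against pools 3 and 4 and 6.72 against pools 1 and 2. Both fits with a single B6 pair passed (limma adjusted p = 0.0265 and 7.11e-09), but the pairs were chosen from these values, so this supports nothing. With the replicate number as a block the gene passed as well (limma adjusted p = 0.0137).

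Wfdc12 had a difference of 1.72 (SE 0.936, limma adjusted p = 0.425), and passed with the replicate number as a block (0.0307). It was -0.39 against pools 3 and 4 (SE 0.419, limma adjusted p = 0.66) and 3.84 against pools 1 and 2. Mup5 had 1.04 (SE 0.512, limma adjusted p = 0.377). It was -0.18 against pools 3 and 4 (SE 0.116, limma adjusted p = 0.419) and 2.26 against pools 1 and 2. The negative values did not pass, so for both genes a reversal of direction was not shown. Their higher level in the null pools was seen only against pools 1 and 2. Klk1 was higher in null pools by 0.59 (SE 0.14, limma adjusted p = 0.0441), and without pools 1 and 2 the difference was 0.34 (limma adjusted p = 0.124). This call held in 3 of 9 fits without 1 array: it was lost without 129/Sv array 1 (0.0582) or 2 (0.0578), B6 array 1 (0.0518) or 2 (0.111), and null array 2 (0.124) or 3 (0.203). It was also lost with no filter (0.0999), without the variance trend (0.178) and in the fit of the 7 B6 and null arrays (0.0585). Its second bright probe set gave 0.65 (limma adjusted p = 0.0369) and 0.37 (0.0984), and its dim one -0.00386 (0.995).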

How the data were processed

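The authors deposited 1 linear intensity (MAS5 signal) per probe set and array. MAS5 is named in the submitters' processing notes without a version, and no detection calls were used. The table held 22690 probe sets. After 64 controls were left out, the platform annotation gave 1 gene symbol for 20380 of 22626, several for 691 and none for 1555. No array repeated another.

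All values were analysed as log2(signal + 16), and arrays were not normalized again, so fold changes of dim probe sets are understated. Probe sets above the array median on at least 2 of the 4 B6 arrays (11665) or of the 9 arrays (12575) were kept. Separation of the B6 pairs required no overlap and a pair difference of at least 1. For the contrasts limma 3.58.1 was run in R 4.3.3 with lmFit and a trended eBayes, two-sided, with Benjamini-Hochberg adjustment over all probe sets tested. Null against 129/Sv used those 5 arrays, and null against B6 used all 9.

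The B6 pairs, the members and the 37 gene lists were chosen with earlier results of these data known. Genes were named as given markers, the 14 largest gaps per direction, list members that separated the pairs (or the brightest), the brightest genes, and the 3 nearest profiles. List members named beyond that, and Etv1, were chosen after their values were seen. In simulated data with known changes over 12575 probe sets, the fit of null against 129/Sv found 41% of changes of 2-fold and 78% of those of 4-fold, with 7 false calls, and that of null against B6 found 76% and 97%, with 10. Promoters came from RefSeq (GRCm38.p6), and 4 of 5 genes looked up were found. The alternatives tried were other pseudocounts, normalizations, filters, probe set choices, separation limits and limma settings, and each array left out.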

Additional observations from a re-analysis of the deposited data

How the results depend on the processing

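For each of 16 probe sets tracked, the difference between the B6 pairs kept its sign, and 180 of 181 such values moved by no more than the spread within the pairs. Most of this was fixed in advance, because filters and probe set choices leave these values unchanged. Leaving out 1 array cannot move them past that spread, nor turn the sign where the pairs do not overlap. Only the pseudocounts and normalizations could have moved them further. The counts depended on the limits. Probe sets higher in pools 3 and 4 (57) and in pools 1 and 2 (24) numbered 978 and 918 with no filter, 10 and 4 with a 75th percentile filter, 26 and 15 with 1 probe set per gene, 17 and 8 with a gap of at least 1 between the pairs, and 290 and 203 with a 1.5-fold limit. With multi-transcript probe sets left out, the second count was 15. Leaving out 1 B6 array, which loosens the rule, gave 82 to 164 and 38 to 93. Separating probe sets with a 2-fold range among the null arrays (20) and the 129/Sv arrays (21) numbered 1181 and 735 with no filter, 4 and 5 with the 75th percentile filter, 6 and 9 with the gap, 50 and 40 with the 1.5-fold limit, and 34 to 47 and 27 to 33 without 1 B6 array. The first was 13 with a pseudocount of 64. The second was 13 with multi-transcript probe sets left out and 12 with 1 probe set per gene.

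Calls for null against 129/Sv (356) were 230 with no filter, 84 without the variance trend and 165 to 330 with 1 array left out. Calls for null against B6 (274) were 154 without the trend, 542 without B6 arrays 1 and 2, 157 without B6 arrays 3 and 4, and 153 to 598 with 1 array left out, the highest without B6 array 1. The causes were not tested.

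The replicate number did not pair the samples: deviations of same-numbered arrays correlated between -0.07 and 0.10 over 7 pairs. With the replicate block, 321 and 221 probe sets were called. The number of arrays limits the precision, and signal over background could not be assessed without detection calls.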

Other observations

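Some genes outside the groups described were far apart between single B6 pools. Dbp, a clock output gene with a daily rhythm, read 11595.4 and 11104.9 in pools 1 and 4 and 3412 and 3436.5 in pools 2 and 3, so its split crossed the pairs. It read 14034.5 and 18835.8 in 129/Sv and 2006.8, 1447.7 and 1377.7 in the null pools. Hspa1b, a heat shock chaperone, read 555.1 in pool 1 and 1561.1, 1845.2 and 1867.9 in pools 2, 3 and 4 on a probe set, while on its other probe sets the pairs overlapped. The class I gene H2-K1 gave 738.9 and 624.2 against 1485.4 and 1172.3 on a dim probe set and a difference of -0.15 on a bright one. Tram1 and Sec61a1, which move new proteins into the endoplasmic reticulum, read 1172.8 and 1558.4 against 757.1 and 791.8, and 1898.2 and 2480.1 against 1459.3 and 1282.9, on their dimmest probe sets. On their brighter probe sets the pairs overlapped, and the list of 97 probe sets had a median difference of -0.00700. No explanation of these values was tested.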
